A study of Mus musculus with 2 samples.

Results

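The genes Nab1, Creb1, Carf, Klf7, Per2 and Hdac4, which link hormone and calcium signals to transcription, were examined in LβT2 gonadotrope cells. They were taken by symbol from the gene list of the single-cell experiment, and all 6 were among the 1068 genes analysed. LβT2 is an immortalised mouse gonadotrope line, used here at passage 15, that arose from a pituitary tumour of a transgenic mouse. The viral oncogene of that transgene, SV40 T-antigen, was placed under rat LHβ gene control. One library came from cells given vehicle and one from cells given 2 nM GnRH, the hypothalamic peptide that stimulates gonadotropes, each for 40 min. Whether each pooled several wells or cultures is not stated. The droplet method counts each captured mRNA once, by a unique molecular identifier (UMI), in 1992 vehicle-treated and 1889 GnRH-treated cells. Each treatment had 1 library, so no test was run, no difference below has a replicate check, and every interval is a 95% interval that covers counting error only.

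Gonadotropes answer GnRH through a receptor that raises intracellular calcium and activates protein kinases. CREB, the product of Creb1, is switched on by phosphorylation and binds the cAMP response element (CRE), and EGR factors made early in the response bind GC-rich sites in gonadotropin genes. NAB proteins hold EGR factors in check, and class IIa histone deacetylases such as HDAC4 leave the nucleus when calcium-dependent kinases phosphorylate them. Much of this control therefore acts on proteins, which transcript counts do not measure.

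Over the analysed genes, 1062 of which were placed on chromosome 1 and none elsewhere, 1126320 UMIs were counted after vehicle and 1118763 after GnRH. Levels are given in CPM, the UMIs of a gene per 1000000 UMIs of the analysed genes, which is not CPM of the whole transcriptome because genes past the end of the table used were not analysed here. Of a list of 8 gonadotrope markers, Scg2, Inha and Inhbb were analysed, with 84983 UMIs after vehicle and 81448 after GnRH in sum. Most of these were of Scg2 (78958 and 75893), whereas Inha had 2024 and 2281 (log2 ratio 0.18, 0.10 to 0.27) and Inhbb 4001 and 3274 (-0.28, -0.35 to -0.21). Of 4 analysed markers of other cell types, Col3a1, Col5a2 and Il1rl1 had 0 UMIs in both libraries and Cxcr4 had 1 in each. The hormone subunit genes that define gonadotropes, and the GnRH receptor gene, were not analysed here. No 2 cells had identical values, and barcodes shared between libraries could not be counted because cells were named by number.

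The promoters of these genes are shown for the sites that the factors above bind. RefSeq starts (GRCm38.p6) were found for 5 of the 6 genes, not for Per2, and the 250 bases before each start were searched on both strands for the CRE (TGACGTCA), its half-site (TGACG, which the full site contains) and an EGR site (GCGNGGGCG, where N is any base). Btg2, the gene with the highest ratio of GnRH over vehicle among those analysed with at least 100 UMIs, is printed as the reference, followed by Nab1 with its EGR sites, Creb1, Hdac4, and Klf7. Capitals mark matches to any of these motifs.
Btg2, chr1:134079156-134079405, minus strand: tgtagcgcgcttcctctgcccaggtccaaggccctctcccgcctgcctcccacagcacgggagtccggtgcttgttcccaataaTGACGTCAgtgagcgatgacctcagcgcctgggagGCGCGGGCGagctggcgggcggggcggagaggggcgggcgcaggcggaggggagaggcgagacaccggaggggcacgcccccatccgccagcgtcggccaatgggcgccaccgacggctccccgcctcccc
Nab1, chr1:52500449-52500698, minus strand: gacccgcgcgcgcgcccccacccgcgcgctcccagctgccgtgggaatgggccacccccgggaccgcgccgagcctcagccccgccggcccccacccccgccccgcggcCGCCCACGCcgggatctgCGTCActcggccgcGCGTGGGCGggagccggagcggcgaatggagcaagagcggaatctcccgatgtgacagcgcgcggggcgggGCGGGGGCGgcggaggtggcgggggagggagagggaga
Creb1, chr1:64532554-64532803, plus strand: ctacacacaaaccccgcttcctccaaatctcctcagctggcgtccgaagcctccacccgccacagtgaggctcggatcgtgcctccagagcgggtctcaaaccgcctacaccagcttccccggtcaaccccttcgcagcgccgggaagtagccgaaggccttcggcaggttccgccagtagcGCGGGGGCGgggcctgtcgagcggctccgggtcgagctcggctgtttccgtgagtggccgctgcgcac
Hdac4, chr1:92180342-92180591, minus strand: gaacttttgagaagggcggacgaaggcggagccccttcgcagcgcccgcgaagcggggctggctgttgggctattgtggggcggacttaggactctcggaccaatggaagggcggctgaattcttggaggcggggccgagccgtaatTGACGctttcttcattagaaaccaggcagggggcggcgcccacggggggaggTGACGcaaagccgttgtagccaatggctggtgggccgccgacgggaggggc
Klf7, chr1:64121390-64121639, minus strand: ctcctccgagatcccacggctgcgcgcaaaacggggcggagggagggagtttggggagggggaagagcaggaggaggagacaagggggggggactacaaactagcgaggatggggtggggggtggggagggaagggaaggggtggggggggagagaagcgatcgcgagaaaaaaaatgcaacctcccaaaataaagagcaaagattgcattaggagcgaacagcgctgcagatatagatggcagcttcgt

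The Btg2 promoter held 1 full CRE, at positions -166 to -159 counted from the start, and 1 EGR site. None of the 5 genes held a full CRE, which 1.55% of 32851 promoter windows of this length did. Nab1 held 3 EGR sites, the nearest of them at -38 to -30, and 1 CRE half-site. Creb1 held 1 EGR site, at -68 to -60. At least 1 EGR site was present in 4.70% of all windows and 3 or more in 0.140%. Hdac4 held 2 CRE half-sites, and of the 2 windows of Carf the internal one held 1 half-site and the upstream one none. The GENCODE genes of Hdac4, Klf7, Nab1 and Creb1 start further upstream than the RefSeq starts used. The Hdac4 and Klf7 windows therefore lie inside the GENCODE gene, as do most of the Nab1 and Creb1 windows and all of their EGR sites. A half-site was present in 17.8% of all windows. The Klf7 window held none of these motifs, and no E-box (CACGTG) or CArG box was matched in any of these windows. A match is a description of the letters and not of binding.

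Klf7 was the most abundant of the 6 transcripts and Carf and Per2 the least. In the vehicle library the levels were 3643 CPM for Klf7 (3532 to 3756), 1410 CPM for Hdac4 (1341 to 1481), 1132 CPM for Creb1 (1071 to 1196), 706 CPM for Nab1 (658 to 757), 313 CPM for Per2 (282 to 348) and 312 CPM for Carf (279.9 to 346). The method counts mRNA 3′ ends, 1 UMI per molecule, so these values were not divided by transcript length, and capture can still differ between genes. Neighbours in this order differed beyond counting error, from 1.25-fold between Hdac4 and Creb1 (1.16 to 1.34) to 2.58-fold between Klf7 and Hdac4 (2.44 to 2.74). The exception was Per2 over Carf, at 1.01-fold (0.865 to 1.17). In the GnRH library the order was the same, and Per2 then stood 2.18-fold above Carf (1.85 to 2.57). Klf7 ranked 46 of the 409 genes with at least 100 UMIs over both libraries in vehicle and 36 in GnRH, whereas Carf ranked 306 and 331.

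**Figure D1:**
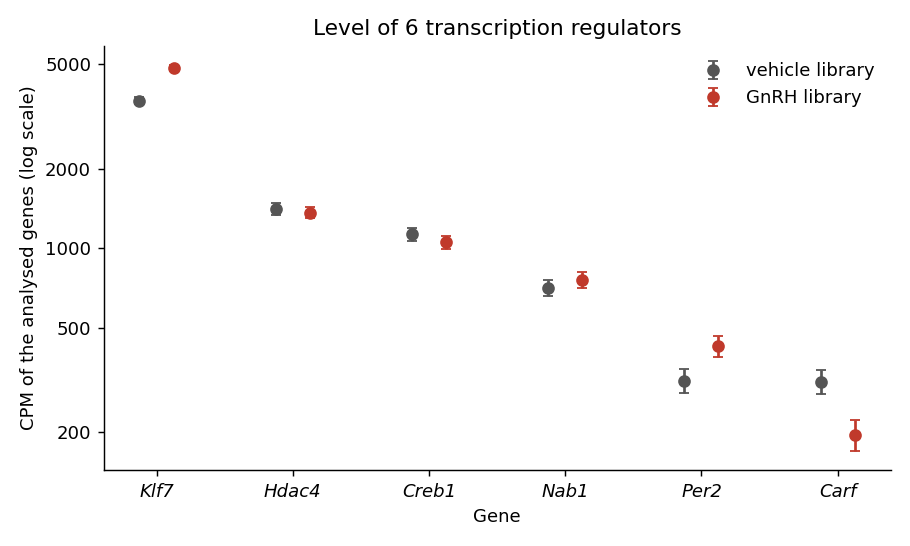
Level of each gene in CPM of the analysed genes (log scale) in the vehicle and GnRH libraries, with 95% Poisson intervals. The intervals of the 2 libraries are apart for Klf7, Per2 and Carf and overlap for Hdac4, Creb1 and Nab1.

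To ask which of the regulators differed after GnRH, each gene was compared between the libraries by size of the ratio, first at 2-fold and then at 1.2-fold. None of the 6 reached 2-fold, a size that 1.22% of the 409 genes reached upward and 0% downward. At 1.2-fold, Klf7 and Per2 were higher in the GnRH library, where 5.87% of the 409 genes were, and Carf was lower, where 14.4% were. Creb1, Nab1 and Hdac4 were within 1.2-fold. Over the 409 genes the log2 ratio had a median of -0.09, slightly below 0.

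**Figure D2:**
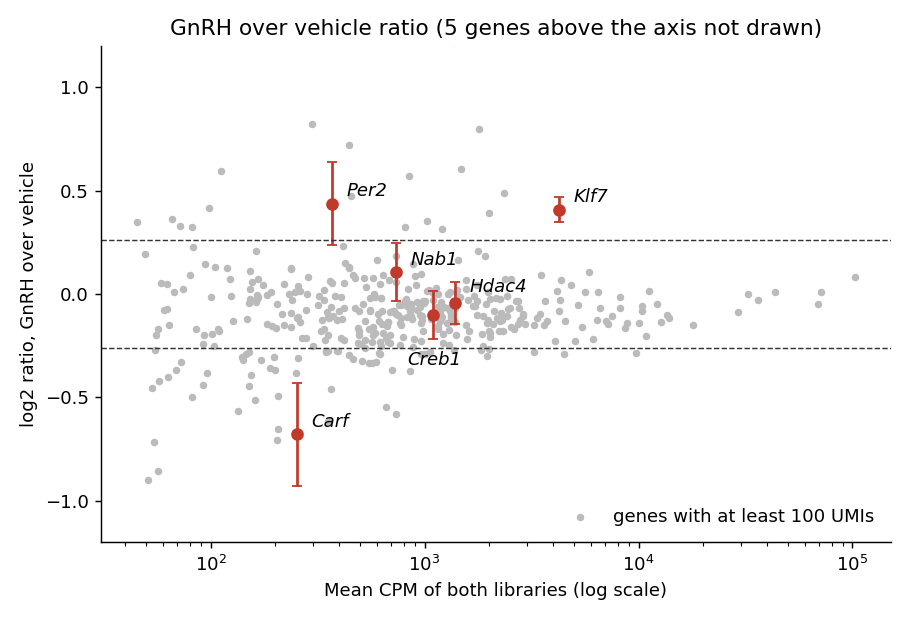
Log2 ratio of GnRH over vehicle against mean CPM (log scale) for the genes with at least 100 UMIs (grey) and the 6 regulators (red, with 95% counting intervals). Dashed lines mark 1.2-fold, and 5 genes at 2-fold or more lie above the axis. Klf7 and Per2 lie above the upper line, Carf below the lower line, and the other 3 between the lines.

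Among the DNA-binding activators, Creb1 (ENSMUSG00000025958; chromosome 1, 64532645 to 64604548, plus strand) was counted 1275 times after vehicle and 1182 times after GnRH, at 1132 and 1057 CPM (997 to 1119). The log2 ratio of Creb1 was -0.10 (-0.21 to 0.02), which equals the median gene to within counting error, at a difference of -0.0047 from it. No annotated gene overlaps Creb1, and its interval was 0.862 to 1.01-fold.

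Carf encodes the calcium-response factor, known from neurons as an activator of the Bdnf gene through a calcium-response element. The gene (ENSMUSG00000026017; chromosome 1, 60098247 to 60153953, plus strand) had 351 vehicle and 218 GnRH UMIs. Its level was 312 CPM in vehicle and 195 CPM (169.8 to 223) in GnRH, and the intervals were apart. The log2 ratio was -0.68 (-0.93 to -0.43), or 0.625-fold, and 4 of the 409 genes had a lower one. Of these GnRH UMIs, 13 came from 1 cell, and without that cell 205 remained and the log2 ratio was -0.76. The start of Carf overlaps that of Wdr12 on the opposite strand, which had 689 vehicle and 544 GnRH UMIs. A pseudogene, Gm15464, lies within Carf on the same strand. How reads shared by Carf, Wdr12 and Gm15464 were assigned is not known.

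Klf7 encodes a Krüppel-like zinc finger factor best known from neurons. The gene (ENSMUSG00000025959; chromosome 1, 64029447 to 64122282, minus strand) had 4103 vehicle and 5411 GnRH UMIs, or 3643 CPM and 4837 CPM (4709 to 4967). Its log2 ratio was 0.41 (0.35 to 0.47), or 1.33-fold, the sixteenth highest of the 409. Because Klf7 was abundant its interval was narrow, and its whole range lay above 1.2-fold (1.27 to 1.38). Relative to the median gene the log2 difference was 0.50. A pair of non-coding genes overlap it on the opposite strand: Gm26649, with 22 vehicle and 16 GnRH UMIs, and Gm13748, with 0 in both. A microRNA gene on the same strand, Mir6899, was not analysed here.

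Per2, a repressor in the circadian clock whose transcription also responds to CREB, had a ratio of like size from far fewer counts. The gene (ENSMUSG00000055866; chromosome 1, 91415982 to 91459324, minus strand), with no gene annotated over it, had 353 vehicle and 475 GnRH UMIs. Its level was 313 CPM in vehicle and 425 CPM (387 to 465) in GnRH. The log2 ratio was 0.44 (0.24 to 0.64), or 1.35-fold (1.18 to 1.56), and 13 genes had a higher one. The lower end of this interval lay under 1.2-fold.

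The 2 corepressors were close to the level of vehicle. Nab1 (ENSMUSG00000002881; chromosome 1, 52457294 to 52500679, minus strand), which also has no gene annotated over it, had 795 vehicle and 850 GnRH UMIs, or 706 and 759.8 CPM (709.5 to 812.6). Its log2 ratio of 0.11 (-0.03 to 0.25) was 0.20 above the median gene. Hdac4 (ENSMUSG00000026313; chromosome 1, 91928779 to 92195699, minus strand) had 1588 vehicle and 1531 GnRH UMIs, or 1410 and 1368 CPM (1301 to 1439). Its log2 ratio was -0.04 (-0.15 to 0.06). Within Hdac4, Gm26720 on the opposite strand had 72 and 68 UMIs, and Gm37048 on the opposite and Gm37036 on the same strand were not analysed here. The intervals were 0.976 to 1.19-fold for Nab1 and 0.904 to 1.04-fold for Hdac4. They hold for scaling to library totals, and under TMM scaling the log2 ratio was 0.20 for Nab1 and 0.05 for Hdac4, which was then above 0.

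The share of cells in which a transcript was found was then compared at equal depth. Each cell was thinned to 300 of its UMIs, which left out 219 vehicle-treated and 108 GnRH-treated cells with fewer, and the share expected over all such thinnings was taken. Klf7 was found in 62.8% of vehicle-treated cells (60.5 to 65.1%) and 72.1% of GnRH-treated cells (69.9 to 74.2%), a difference of 9.28 percentage points (6.19 to 12.3). Without thinning its shares were 77.9% and 85.7%. Per2 was found in 8.47% (7.21 to 9.85%) and 11.4% (10.01 to 13.03%) of thinned cells, 2.97 points higher in GnRH (1.02 to 4.96). Carf went the other way, from 8.54% (7.26 to 9.91%) to 5.48% (4.49 to 6.67%), a difference of -3.07 points (-4.72 to -1.35). Unthinned, Per2 was found in 15.5% and 20.8% of cells and Carf in 15.5% and 9.85%.

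For the other 3 genes the interval of the difference included 0. Hdac4 was found in 34.03% and 33.9% of thinned cells, a difference of -0.16 points (-3.26 to 2.96). Creb1 was found in 28.7% and 26.6%, a difference of -2.10 points (-5.03 to 0.84). Nab1 was found in 18.7% and 19.96%, a difference of 1.22 points (-1.39 to 3.81). Unthinned shares in vehicle and GnRH were 51.6% and 52.6% for Hdac4, 44.8% and 42.9% for Creb1, and 31.5% and 34.1% for Nab1. No cell type that should lack these genes was present, and how much free RNA adds to each share could not be measured. Over the analysed genes, the median was 543.5 UMIs per vehicle-treated and 561 per GnRH-treated cell. These are not whole-cell depths.

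**Figure D3:**
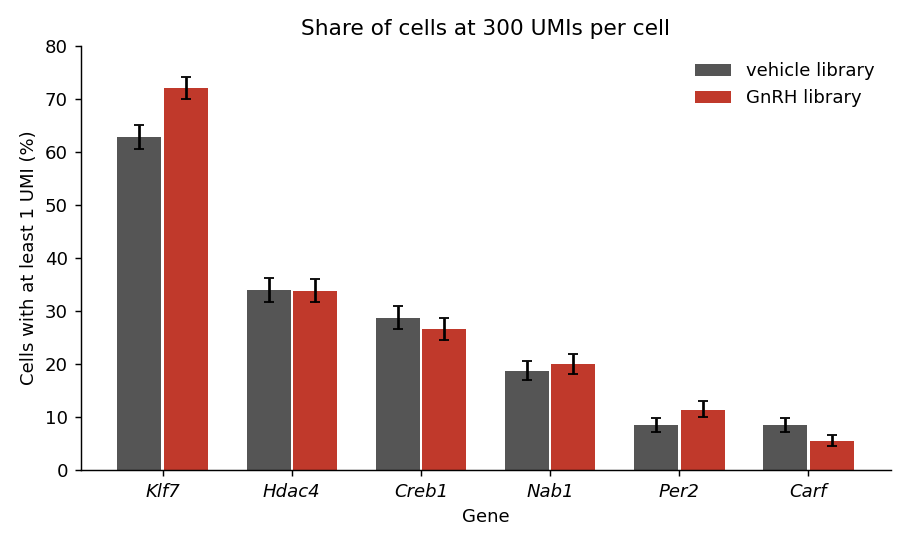
Share of cells with at least 1 UMI of each gene after thinning to 300 UMIs per cell, in percent, with 95% exact binomial intervals. The bars stand apart for Klf7, Per2 and Carf, and their intervals overlap for Hdac4, Creb1 and Nab1.

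Cell-to-cell variation was set against Poisson counting, as the squared coefficient of variation over the value expected at the UMI totals of the cells. Among genes that averaged 0.1 UMI or more per cell, the median was 1.07 in each library. Nab1 (1.03 in vehicle and 1.06 in GnRH), Creb1 (1.04 and 1.13), Per2 (1.09 and 1.16) and Hdac4 (1.08 and 1.06) were near it. Klf7 was at 1.35 in vehicle and 1.41 in GnRH. This ratio grows with the mean count for a given spread, so these genes were also set against others within 2-fold of their own mean. For Klf7, 9 of 67 were higher in vehicle and 11 of 49 in GnRH, and the medians were 1.12 and 1.13. For Per2, 28 of 112 and 28 of 148 were higher, with medians of 1.03 and 1.06. The counts were 96 of 171 and 48 of 167 for Creb1, and 121 of 180 and 92 of 168 for Nab1. For Hdac4 they were 70 of 156 and 77 of 150. Without thinning, the median was 2 Klf7 UMIs per cell in both libraries, and 5 or more were found in 10.4% of vehicle-treated and 20.3% of GnRH-treated cells. GnRH-treated cells also had more UMIs at the median, 561 against 543.5, so these shares are not at equal depth. The highest Klf7 count in a cell was 16 in vehicle and 17 in GnRH.

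Carf was at 1.07 in vehicle and 1.79 in GnRH. The GnRH value rested on the single cell with 13 Carf UMIs, which had 1001 UMIs over the analysed genes. No other cell of either library had more than 3 Carf UMIs, and without that cell the ratio was 1.11.

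**Figure D4:**
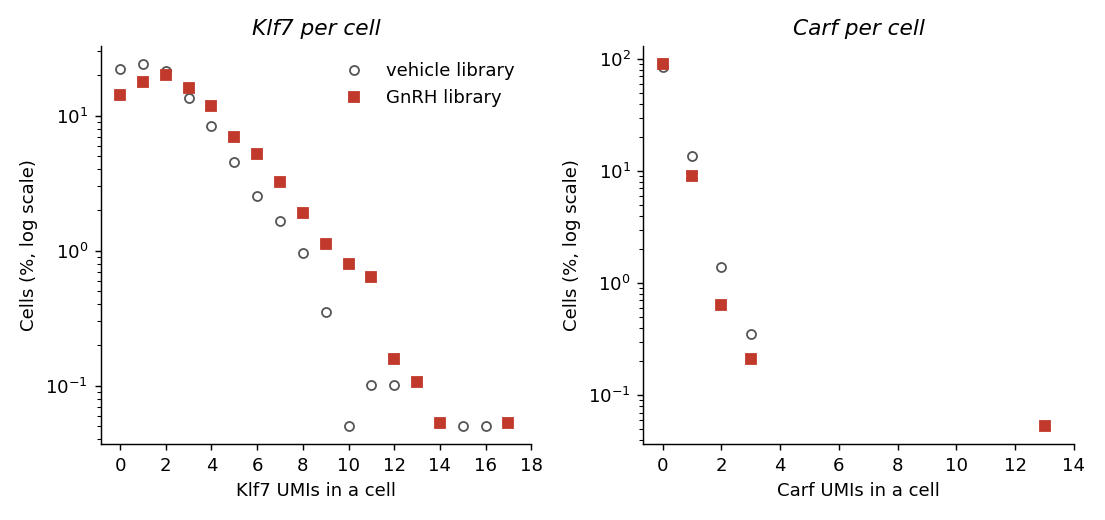
Percent of cells (log scale) at each number of Klf7 UMIs (left) and Carf UMIs (right) per cell, with vehicle as open circles and GnRH as filled squares. Counts are not thinned to equal depth. Klf7 has more GnRH-treated than vehicle-treated cells at each count from 3 to 11, and a single GnRH-treated cell has 13 Carf UMIs while no other cell has more than 3.

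The next question was whether the regulators varied with the strength of the response of a cell. Btg2, an early response gene with 1049 vehicle and 33510 GnRH UMIs (log2 ratio 5.01), served as the measure of response. In 1781 GnRH-treated cells thinned to 300 UMIs, averaged over 20 random thinnings, Pearson correlation with Btg2 was -0.0049 for Nab1, 0.0099 for Creb1, -0.016 for Carf, -0.014 for Per2 and -0.027 for Hdac4. Klf7 had the highest value of the 6, at 0.061, with a range of 0.038 to 0.079 over the thinnings. Such a range shows the spread of random thinning of the same cells and not the error from sampling cells. Of 44 genes within 2-fold of Klf7 in mean, 14 had a correlation larger in size. Coq10b, the highest of 341 genes, was at 0.363, and the middle 90% of these genes lay between -0.085 and 0.059. Btg2 counted towards the 300 UMIs, and with cells thinned without it the 6 values ran from -0.016 for Hdac4 to 0.087 for Klf7. These are descriptions across cells of 1 library, in sparse counts and without a test. In 1773 vehicle-treated cells the 6 values ran from -0.038 for Klf7 to 0.048 for Per2. Of 104 genes within 2-fold of Per2 in mean, 1 had a correlation larger in size in that library, and the range for Per2 over the thinnings was 0.0037 to 0.087.

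GnRH-treated cells were also divided into 3 near-equal groups by their thinned Btg2 UMIs, with 593 cells in the lowest and in the highest group. Mean Btg2 was 1.97 UMIs in the lowest and 17.5 in the highest group. Klf7 was at 4570 CPM (4261 to 4895) in the lowest, 5148 CPM (4821 to 5492) in the middle and 5419 CPM (5082 to 5772) in the highest group. The log2 ratio of highest over lowest was 0.25 (0.11 to 0.38), against a median of -0.06 and an interquartile range of -0.19 to 0.08 over 308 genes. Btg2 counted towards the thinned UMIs, so cells of the highest group had fewer UMIs left for all other genes. How far this lowers these ratios was not tested. In vehicle-treated cells thinned the same way Klf7 was at 3820 CPM (3656 to 3990), below its level in the lowest group. The intervals of the other 5 genes included 0. Their log2 ratios were 0.02 for Nab1 (-0.34 to 0.38), 0.12 for Creb1 (-0.18 to 0.42), -0.29 for Carf (-1.03 to 0.43), -0.06 for Per2 (-0.56 to 0.44) and -0.10 for Hdac4 (-0.36 to 0.17). In about 87 GnRH-treated cells with no thinned Btg2 UMI, Klf7 was at 4312 CPM (3554 to 5184), an interval that includes both its thinned vehicle level and its level of 5084 CPM in the cells with Btg2.

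Correlations among the 6 regulators from cell to cell were weak. Over their 15 pairs the correlation at equal depth ran from -0.023 to 0.036 in vehicle and from -0.014 to 0.044 in GnRH, and 0 pairs exceeded 0.1 in size. Sparse counts pull a correlation towards 0, so low values do not show that these genes vary independently. Thinned cells had a mean of 1.15 (vehicle) and 1.51 (GnRH) UMIs of Klf7, but 0.43 and 0.42 of Hdac4, the next most abundant. Klf7 was the one gene of the 6 with a correlation above 0.1, as the average of both libraries, to any of 338 other genes. Its closest gene was Igfbp5, an IGF-binding protein, at 0.162 in vehicle and 0.149 in GnRH, followed by Elf3, an ETS family factor, at 0.060 and 0.066. Its most negative correlation was with Ptma, at -0.137 and -0.212. Ptma was chosen after its values were seen and was at 71442 CPM as the mean of the libraries.

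For the other 5 genes the closest were weaker. Hdac4 was closest to Cntnap5a, a neuronal adhesion gene, at 0.069 and 0.064, and then to Mgat5, at 0.055 and 0.040. Nab1 was closest to Fam168b and Dtymk, Creb1 to Nucks1 and Ino80d, Carf to Tmem185b and Unc50, and Per2 to Cops8 and Agfg1, all with an average under 0.05 over the libraries.

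A wider list of 71 genes of the EGR, CREB, serum response, calcium and clock pathways held 5 other analysed genes besides the 6. Btg2 and Fhl2 were at least 2-fold higher in GnRH, as were 1.22% of the 409 genes. Fhl2, a LIM protein that acts as a cofactor of CREB and other factors, was counted 207 times after vehicle and 723 times after GnRH (log2 ratio 1.81, interval 1.59 to 2.04). Its correlation with Btg2 in GnRH-treated cells was 0.041. The other 3 were within 1.2-fold. Elk4, a ternary complex factor that works with SRF, had 986 and 926 UMIs (log2 ratio -0.08, interval -0.21 to 0.05). Mapkapk2, a kinase downstream of p38, had 1580 in each library (0.01, -0.09 to 0.11), and Npas2, a partner in the clock complex that drives Per2, had 319 and 317 (0.00, -0.23 to 0.23). Of all 11 genes 4 were higher and 1 lower at 1.2-fold, beside 5.87% and 14.4% of the 409 genes, and the median log2 ratio was 0.01. Klf7, Per2 and Carf make up 3 of these 5, and Btg2, the measure of response, is another. The list was drawn up with earlier results of these data known, so these counts are a description only.

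Among 34 analysed genes of a list of DNA-binding factors, 16 had at least 100 UMIs, of which 1, Klf7, was at least 1.2-fold higher (5.87% of the 409) and 3 were lower (14.4%). Besides Carf, the lower ones were Hes6, a HES family repressor, and Ikzf2, an Ikaros family zinc finger factor. Hes6 was the most abundant factor, with 12059 vehicle and 9817 GnRH UMIs (log2 ratio -0.29, -0.33 to -0.25). Ikzf2 had 178 and 142 (-0.32, -0.64 to 0.01), an interval that includes 0. Thap4, the third most abundant after Klf7, had 1482 and 1251 UMIs (log2 ratio -0.23). The median of the 16 was -0.11, near that of all 409 genes. Among 23 coregulators and chromatin-linked genes, 3 were higher (Btg2, Fhl2 and Per2) and 0 lower at 1.2-fold, against the same 5.87% and 14.4%, with a median of -0.02. Nucks1, the most abundant after Btg2, was at a log2 ratio of -0.14. With TMM scaling, which centres the genes, 31 of the 409 genes were at least 1.2-fold higher and 27 lower, in place of 24 and 59. Klf7, Per2 and Carf kept their side of 1.2-fold under that scaling, and Hes6 and Ikzf2 did not, since 1 factor of the list, Carf, was then lower.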

How the data were processed

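Vehicle-treated and GnRH-treated LβT2 cells were profiled in 1 library each. The authors counted UMIs for every gene in each cell using Cell Ranger 1.3, and the submitters' processing notes name mm10. The deposited counts were whole numbers, not normalised, for called cells. The annotation, the use of strand and any equalisation of depth were not given in the sources used here. The table analysed held 1068 of 27998 listed genes (3.81%), and ended within a row, which was left out. It is thus the first part of a longer table, and totals, CPM and depth per cell refer to these genes only. The barcode list was not used. Positions came from GENCODE M21 (GRCm38), promoters from RefSeq.

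UMIs were summed per library and scaled to CPM of the analysed genes. Intervals were exact Poisson for levels, exact conditional binomial for ratios, exact binomial for shares, and Newcombe for differences of shares. In the groups by Btg2, UMI sums were averaged over 20 thinnings. Estimators were checked on simulated counts. The 6 genes, the lists and the thresholds were chosen with earlier results of these data known. Genes named were the 6, Btg2, the 2 genes most correlated with each, and list genes past 1.2-fold or among the 3 most abundant of a list, with at least 100 UMIs, of which 1 is not reported here. The other pathway genes (Elk4, Npas2), Coq10b and Ptma fall outside that rule and were chosen after their values were seen. No doublet caller was run, and leaving out the 5% of cells with most UMIs was an alternative. NumPy 2.4.6, SciPy 1.17.1 and edgeR 4.0.16 (TMM factors) were used.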

Additional observations from a re-analysis of the deposited data

How the results depend on the processing

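No paired analysis was possible because vehicle and GnRH were each measured in a single library, without a test. At 1.2-fold, Klf7 and Per2 were higher and Carf lower under each of 8 alternative scalings and cell filters, with log2 ratios of 0.40 to 0.50, 0.39 to 0.53 and -0.79 to -0.59. Creb1 (-0.15 to -0.0080), Nab1 (0.06 to 0.20) and Hdac4 (-0.07 to 0.05) stayed within 1.2-fold. Klf7 left its counting interval under TMM (0.50), median-of-ratios (0.49) and unscaled means (0.48), which shift all genes alike. The number of DNA-binding factors at least 1.2-fold lower moved to 1 under TMM, 1 under median-of-ratios, 1 with unscaled means, 6 with the mean of CPM per cell, and 5 with a minimum of 20 UMIs or 1 UMI. With a minimum of 1 UMI, 2 were higher. With the mean of CPM per cell, 1 coregulator was lower. The cause was not tested, apart from the minimums, which admit genes with few counts. The variation of Carf in GnRH moved to 1.13 after thinning and to 1.11 without the cell with 13 Carf UMIs. For cells with against without Btg2, the log2 ratio of Per2 was 0.47 (-0.53 to 1.70), with 8 UMIs in the latter cells. Correlations with Btg2 moved by at most 0.05 under 7 alternatives, with Klf7 at 0.049 to 0.095. Leaving out the Carf-rich cell and groups by unthinned Btg2 share (Klf7 0.32) were added after seeing the data. Ratios of Carf and Per2, with few UMIs, are the least precise.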
